A study of Mus musculus with 24 samples.

Results

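The genes described here encode the D-type cyclins and the proteins that work with and against them: the cyclins Ccnd1, Ccnd2 and Ccnd3, the kinases Cdk4 and Cdk6, the inhibitors Cdkn1a, Cdkn1b and Cdkn2c, the retinoblastoma gene Rb1, and Myc. They are 10 of the 18063 genes listed for M1 macrophages and of the 17786 listed for M2 macrophages, matched by gene symbol, and each symbol matched 1 gene in both stimuli. RNA sequencing was done on bone marrow-derived macrophages (BMDMs) from C57BL/6 mice, 10 weeks old, either wild type (WT) or DRD5-/-, in which the dopamine receptor gene Drd5 was disrupted by CRISPR-Cas9. The stimulus lasted 12 h and was either Lps at 100 ng/ml together with 50 ng/ml of Ifn-γ, called M1, or 10 ng/ml each of Il-4 and Il-13, called M2, in the presence or absence of dopamine (DA). This gave 8 groups of 3 libraries, 24 in all. The controls of every comparison were also stimulated cells, so no unstimulated macrophage is described here. The labels of the series name bone as the tissue but describe cells taken from the colon, whereas the study's methods describe marrow grown in medium conditioned by L929 cells. The labels do not say whether replicates are separate mice or separate cultures, so that the tests below measure only the spread between these libraries, which may be technical. The 10 genes were selected from a series whose measured differences between these same 24 libraries were already known. Their levels and differences are therefore given as a description, without p-values.

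D-type cyclins are the sensors that tie the cell cycle to growth factors. They bind and activate Cdk4 or Cdk6, and the active pair phosphorylates the Rb1 protein, which then releases E2F transcription factors and lets genes of DNA replication be transcribed. Cdkn2c (p18) belongs to the INK4 inhibitors, which bind Cdk4 and Cdk6 directly, while Cdkn1a (p21, a classical target of p53) and Cdkn1b (p27) act on cyclin-kinase complexes and block Cdk2 in particular. Myc is a transcription factor of growth that binds the E-box sequence CACGTG together with its partner Max. Macrophages grown from marrow divide in response to colony-stimulating factor 1, and their activation by Lps or Ifn-γ is known to halt this division. Drd5 is coupled to the cAMP pathway.

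Reference promoters from RefSeq (build GRCm38.p6) covered 6 of the 10 genes. The 250 bases before the start site are shown for Cdk4 and Cdk6, the 2 kinases, and for the upstream start of Cdkn1a, because these genes differed with DA in M2 and their windows hold the motifs searched for. Capitals mark 3 motifs found on either strand: the E-box CACGTG, the half-site TGACG of the cAMP response element (its reverse CGTCA on the other strand), and the 10-letter half-site of p53. No 2 of these matches overlapped.
Cdk4, chr10:127063285-127063534, plus strand: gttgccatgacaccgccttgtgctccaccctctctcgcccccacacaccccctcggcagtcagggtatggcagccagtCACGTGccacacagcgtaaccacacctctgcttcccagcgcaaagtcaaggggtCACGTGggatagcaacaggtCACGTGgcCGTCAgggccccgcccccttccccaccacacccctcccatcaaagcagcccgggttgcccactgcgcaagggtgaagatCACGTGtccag
Cdk6, chr5:3343643-3343892, plus strand: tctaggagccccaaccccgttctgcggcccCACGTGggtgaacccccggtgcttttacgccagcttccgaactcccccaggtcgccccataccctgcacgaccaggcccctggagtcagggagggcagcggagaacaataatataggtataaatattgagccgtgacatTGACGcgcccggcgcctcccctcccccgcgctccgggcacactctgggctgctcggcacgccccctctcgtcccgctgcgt
Cdkn1a, chr17:29090729-29090978, plus strand: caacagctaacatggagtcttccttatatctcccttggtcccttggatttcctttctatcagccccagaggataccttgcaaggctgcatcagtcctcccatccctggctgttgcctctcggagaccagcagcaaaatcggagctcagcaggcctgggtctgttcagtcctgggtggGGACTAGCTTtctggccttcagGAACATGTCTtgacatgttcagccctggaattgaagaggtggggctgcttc

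The Cdk4 window held 4 E-boxes, which begin 172, 118, 98 and 11 bases before the start site, and 1 cAMP half-site. Of the 32851 RefSeq windows of this length, 6.02% held at least 1 E-box and 0.0609% held 3 or more. The Cdk6 window held 1 E-box and 1 cAMP half-site, the latter found in 17.8% of all windows. This window lies within the annotated span of Cdk6, which begins at 3341004, and so before an internal start site. The window before the upstream start of Cdkn1a held 2 p53 half-sites, which 0.259% of windows do, and neither of the other 2 motifs. No match to the 3 motifs was found in the windows of Cdkn1b, of Cdkn2c or of the second start of Cdkn1a, and both windows of Ccnd3 held 1 cAMP half-site each. These matches describe the letters of the windows only.

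**Figure D1:**
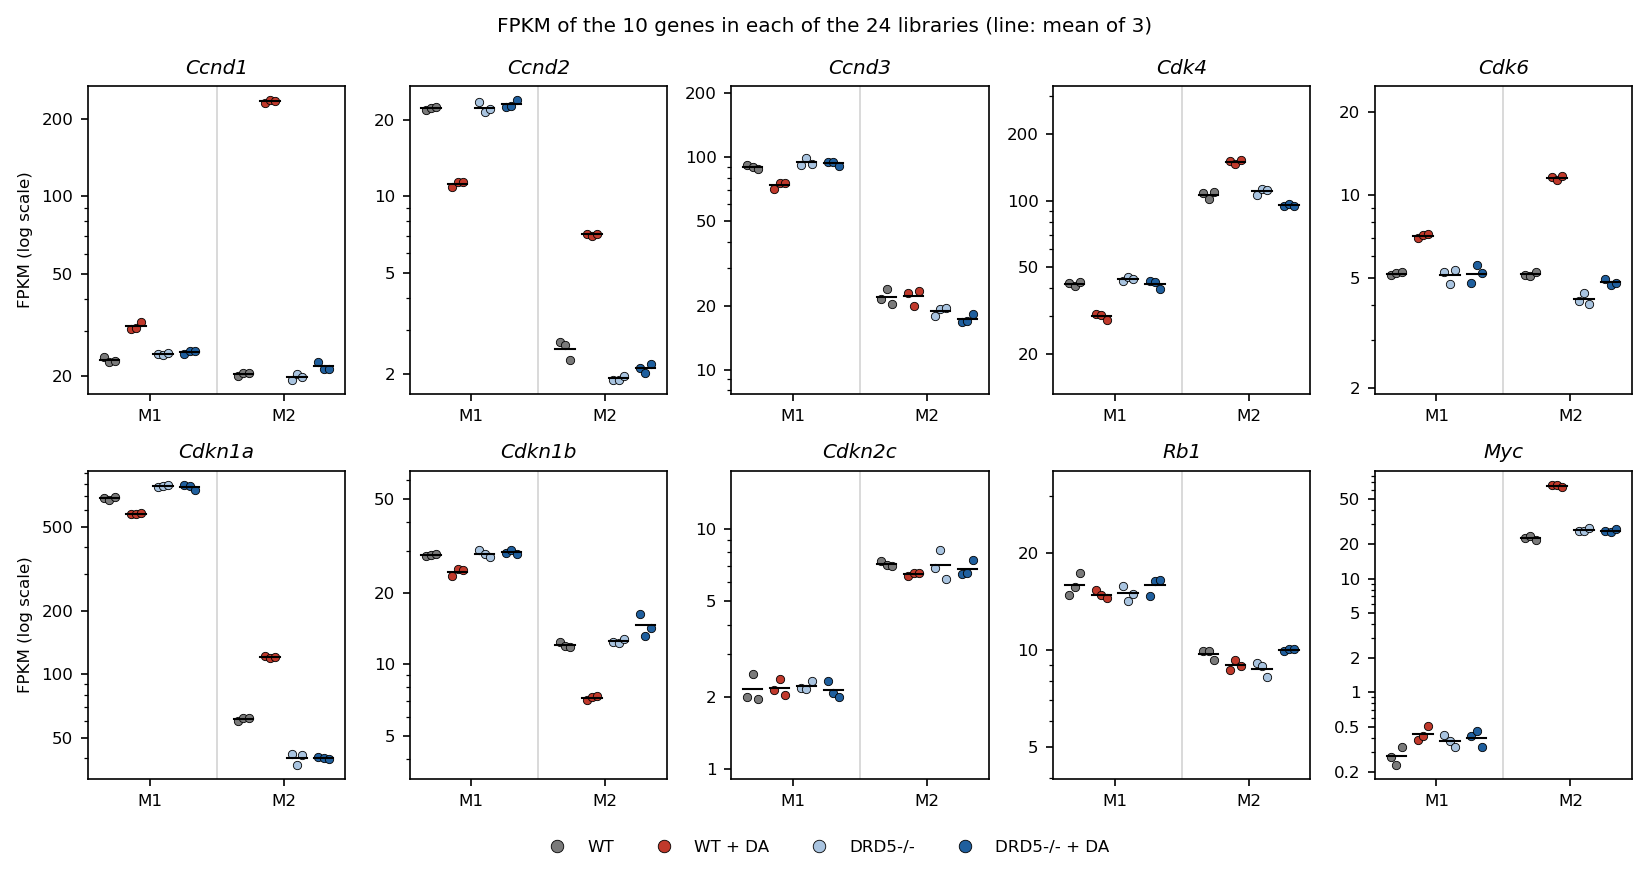
FPKM of each gene on a log axis, with 1 point for each of the 24 libraries, the mean of 3 as a line, and the M1 groups on the left and M2 groups on the right of each panel; the axis range differs between panels. The DA-treated WT libraries stand apart from the other 3 M2 groups for Ccnd1, Ccnd2, Cdk4, Cdk6, Cdkn1a, Cdkn1b and Myc, while for Cdkn2c each M2 group overlaps with the next in order.

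The authors deposited FPKM, a fragment count corrected for gene length and library size, so that genes can be compared within a stimulus. M1 and M2 files list different genes and may have been normalized apart, and their levels are therefore only set side by side. Summed FPKM ranged from 476187 to 494459 in the M1 libraries and from 482310 to 503799 in the M2 libraries, and the read depth is unknown. All 8 macrophage markers reached 1 FPKM in both stimuli. Summed M1 markers ranged from 3594 to 4017 FPKM in M1 and from 13.5 to 23.6 FPKM in M2, and Nos2 was the highest of them in M1. Markers of T, B, mast, erythroid and dendritic cells each peaked at 6.03 FPKM or less, and fibroblast markers summed to 73.8 to 120 FPKM in M2 against 3.69 to 4.49 FPKM in M1. Drd5, the targeted gene, is not listed in M1, and in M2 it was at 0 in 10 of 12 libraries and at 0.06 and 0.03 FPKM in 1 untreated and 1 DA-treated WT library, so its level checks no label.

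Among untreated WT cells, the set of cell cycle genes in use differed between the stimuli. Cdkn1a was the highest of the 10 genes in M1, at 682 ± 8.71 FPKM (SD, n = 3), and stood at 61.6 ± 1.02 FPKM in M2. Ccnd3 was at 89.7 ± 2.24 FPKM in M1 and 21.9 ± 1.86 FPKM in M2, and Ccnd2 at 22.2 ± 0.316 and 2.52 ± 0.214 FPKM. The order was the opposite for Cdk4, at 41.9 ± 0.939 FPKM in M1 and 107 ± 4.45 FPKM in M2, and for Cdkn2c, at 2.15 ± 0.298 and 7.16 ± 0.175 FPKM. Myc was nearly absent in M1, at 0.23 to 0.33 FPKM, and measured 21.87 to 23.65 FPKM in M2. Ccnd1 and Cdk6 were close in both, at 23.2 and 20.4 FPKM and at 5.19 and 5.16 FPKM. The stimulus and any separate processing of the M1 and M2 files cannot be told apart in these values.

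To see how DA acted on these genes in M2 macrophages, DA-treated WT BMDMs were compared with untreated WT BMDMs. The cyclin gene Ccnd1, the kinase genes and Myc were higher with DA, and the inhibitor genes Cdkn1a and Cdkn1b differed in opposite directions. Of the 10 genes, 7 passed the threshold, which asks for 1.2-fold or more and an adjusted p below 0.001 in the limma fit across all genes, 6 of them higher and 1 lower with DA. Over all 10735 tested M2 genes, 25.9% were higher and 20.4% lower by the same rule. The median difference of the 10 genes on the log2(FPKM + 1) scale was 0.72, and that of all tested genes 0.03. In these bulk samples, fewer cells of a type and less RNA per cell cannot be told apart.

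Ccnd1, the D-type cyclin that growth factors induce most directly, measured 20.06, 20.70 and 20.58 FPKM in untreated WT libraries and 230.49, 236.89 and 234.17 FPKM in DA-treated ones. All 3 treated libraries lay far above the others, and the ratio of the means was 11.4, or 3.45 ± 0.0312 (SE) on the log2 scale. In DRD5-/- cells the libraries measured 19.33, 20.36 and 19.97 FPKM without DA and 22.83, 21.38 and 21.43 FPKM with it. These ranges did not overlap either, but the means differed only by a ratio of 1.10 and the difference was under the threshold. The effect of DA in WT minus that in DRD5-/- was 3.32 ± 0.0441. Ccnd1 lies at chr7:144929931-144939831 and overlaps LTO1, which stayed at 11.4 to 11.88 FPKM in DA-treated and 11.48 to 12.33 FPKM in untreated M2 WT libraries.

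Ccnd2 followed in the same direction at a much lower level. Its libraries measured 2.68, 2.61 and 2.28 FPKM in untreated WT and 7.15, 6.99 and 7.14 FPKM in DA-treated WT cells, a ratio of 2.81 and a log2 difference of 1.201 ± 0.0536. Without the receptor, Ccnd2 ranged from 1.90 to 1.98 FPKM untreated and from 2.03 to 2.19 FPKM with DA. Both DRD5-/- ranges were below every WT library. The difference of the DA effects between genotypes was 1.11 ± 0.0758.

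Ccnd3, the third D-type cyclin, did not follow the other two. It measured 21.48, 23.90 and 20.24 FPKM in untreated and 22.93, 19.88 and 23.40 FPKM in DA-treated M2 WT libraries, and the ranges overlapped. The ratio was 1.01, with a log2 difference of 0.01 ± 0.0655. DRD5-/- libraries lay lower, from 17.82 to 19.44 FPKM without and from 16.74 to 18.19 FPKM with DA. Ccnd3 lies at chr17:47505051-47599689 and overlaps Bysl, at 7.39 to 8.01 FPKM in untreated and 12.74 to 13.29 FPKM in DA-treated WT cells.

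The make-up of the D-type cyclins in M2 therefore shifted to Ccnd1 in DA-treated WT cells. Their summed level was 44.8 ± 2.13 FPKM in untreated WT, 263 ± 2.17 FPKM in DA-treated WT, 40.7 ± 1.39 FPKM in untreated DRD5-/- and 41.3 ± 0.851 FPKM in DA-treated DRD5-/- cells. Ccnd1 made up 45.7% ± 1.97 of the sum in untreated and 88.9% ± 0.781 in DA-treated WT cells, against 48.9% ± 0.634 and 53.03% ± 1.75 in DRD5-/- cells. The share of Ccnd3 went from 48.7% ± 1.84 to 8.39% ± 0.741 in WT, although its own level was nearly the same. Ccnd2 held 5.63% ± 0.394 of the sum without and 2.70% ± 0.0469 with DA in WT cells, since its gain was smaller than that of Ccnd1.

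**Figure D2:**
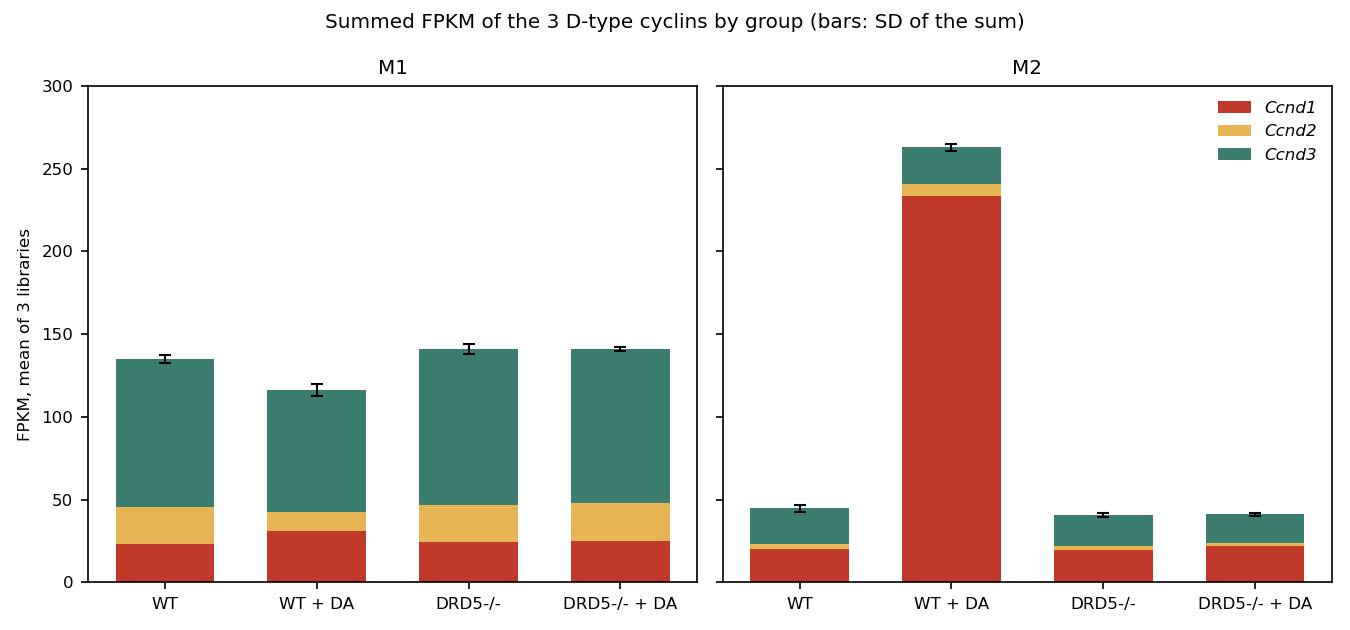
Stacked bars of the mean FPKM of Ccnd1, Ccnd2 and Ccnd3 in the 4 groups of M1 (left) and of M2 (right), on a linear axis from 0, with the SD of the summed FPKM over 3 libraries as error bars. Ccnd3 is the largest part of every M1 bar, and Ccnd1 makes up most of the DA-treated WT bar in M2, which reaches 263 FPKM.

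Both kinases that D-type cyclins activate were higher with DA in M2 WT cells. Cdk4 measured 108.79, 101.51 and 109.57 FPKM without and 150.65, 146.20 and 152.71 FPKM with DA. Every treated library exceeded every untreated one, the ratio was 1.41 and the log2 difference 0.49 ± 0.0328. In DRD5-/- cells it was lower with DA in all 3 libraries, at 94.97, 96.84 and 94.08 FPKM against 106.04, 112.78 and 111.73 FPKM, a ratio of 0.865 that did not reach 1.2-fold. The 2 genotypes thus moved apart, and the difference of their DA effects was 0.69 ± 0.0464. Cdk4 lies at chr10:127063535-127067288 and overlaps Tspan31, which measured 109.51 to 115.61 FPKM in untreated and 82.73 to 86.79 FPKM in DA-treated M2 WT libraries, the opposite order.

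Cdk6, the second kinase, was the less abundant of the pair in every group. It measured 5.12, 5.09 and 5.28 FPKM in untreated and 11.58, 11.33 and 11.75 FPKM in DA-treated WT libraries, without overlap. The ratio was 2.24 and the log2 difference 1.03 ± 0.0430, larger than that of Cdk4 on both measures. DRD5-/- libraries ranged from 4.02 to 4.43 FPKM without and from 4.74 to 4.97 FPKM with DA, a ratio of 1.15 under the threshold. The ratio of Cdk4 to Cdk6 was 20.7 ± 0.659 in untreated and 13.0 ± 0.0577 in DA-treated WT cells, and 26.3 ± 1.29 and 19.7 ± 0.672 in DRD5-/- cells. The difference of the DA effects on Cdk6 was 0.86 ± 0.0608. Cdk6 lies at chr5:3341004-3531008.

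The inhibitors Cdkn1a and Cdkn1b moved in opposite directions. Cdkn1a measured 60.47, 62.02 and 62.40 FPKM in untreated and 121.92, 119.74 and 120.71 FPKM in DA-treated M2 WT cells, a ratio of 1.96 and a log2 difference of 0.96 ± 0.0370. It was at 41.87, 37.29 and 41.60 FPKM in untreated and 40.85, 40.14 and 39.57 FPKM in DA-treated DRD5-/- libraries, which overlapped. The level without the receptor was thus below that of untreated WT cells, and Cdkn1a alone among the 10 genes passed the threshold between the untreated genotypes in M2, although Ccnd2 also passed without untreated WT replicate 3 and Cdk6 without untreated DRD5-/- replicate 2. The difference for Cdkn1a was -0.60 ± 0.0370 on the log2 scale, and no library of one genotype reached the range of the other. Over all tested M2 genes, 1.37% were higher and 4.15% lower in untreated DRD5-/- than in untreated WT cells.

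Cdkn1b measured 12.45, 11.91 and 11.79 FPKM in untreated and 7.07, 7.30 and 7.37 FPKM in DA-treated M2 WT libraries. It was the one gene of the 10 that was lower with DA past the threshold, with a ratio of 0.601 and a log2 difference of -0.66 ± 0.0578. DRD5-/- cells showed the other order, with 12.48, 12.31 and 12.78 FPKM untreated and 16.39, 13.23 and 14.24 FPKM treated. This ratio of 1.17 stayed under the threshold, and the library at 16.39 FPKM was the highest of all M2 libraries. The difference of the DA effects was -0.87 ± 0.0817. The sum of Cdkn1a and Cdkn1b relative to the summed D-type cyclins was 1.65 ± 0.0777 in untreated and 0.487 ± 0.00718 in DA-treated WT cells, and 1.30 ± 0.0992 and 1.33 ± 0.0431 in DRD5-/- cells. Cdkn1a lies at chr17:29090979-29100722 and Cdkn1b at chr6:134920401-134925525, and neither overlaps another annotated gene.

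Cdkn2c, the INK4 inhibitor, ranged only from 6.20 to 8.16 FPKM over the 12 M2 libraries. DA-treated WT libraries measured 6.35, 6.58 and 6.57 FPKM against 7.35, 7.11 and 7.01 FPKM untreated, a log2 difference of -0.12 ± 0.0726 under the threshold. Rb1, the substrate of the cyclin D kinases, ranged from 8.25 to 10.09 FPKM. It measured 9.92, 9.93 and 9.28 FPKM in untreated and 8.63, 9.27 and 8.94 FPKM in DA-treated WT cells, and 9.08, 8.93 and 8.25 FPKM and 9.94, 10.04 and 10.09 FPKM in DRD5-/- cells. The 2 genotypes had opposite orders, with log2 differences of -0.11 ± 0.0439 and 0.18 ± 0.0439, and the difference between these of -0.28 ± 0.0621 was not past the threshold. Without untreated WT replicate 3 it passed, at -0.31. Rb1 lies at chr14:73192858-73325951 and holds Lpar6 within its span, at 14.15 to 16.37 FPKM in the M2 WT libraries.

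Myc measured 22.71, 23.65 and 21.87 FPKM in untreated and 66.68, 66.12 and 63.46 FPKM in DA-treated M2 WT cells. The ratio was 2.88 and the log2 difference 1.48 ± 0.0373, the second largest of the 10 genes. DRD5-/- libraries measured 26.11, 26.29 and 27.87 FPKM without and 26.14, 25.74 and 27.32 FPKM with DA. They overlapped with each other and lay above every untreated WT library, by a ratio of 1.18 that did not pass the threshold. The difference of the DA effects was 1.50 ± 0.0527. Myc lies at chr15:61985341-61990361 and overlaps no other annotated gene.

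The order of the 4 M2 groups was not one and the same for these genes. DA-treated WT was the highest group, without overlap with the next, for Ccnd1, Ccnd2, Cdk4, Cdk6, Cdkn1a and Myc, and the lowest for Cdkn1b. Below it, Ccnd2 and Cdk6 were highest in untreated WT, then in DA-treated and last in untreated DRD5-/- cells, with no overlap at any step. For Cdk4 and Cdkn1b the 2 untreated groups were neighbours that overlapped, and DA-treated DRD5-/- cells were the lowest group for Cdk4 and the highest for Cdkn1b. Untreated WT and untreated DRD5-/- cells also overlapped for Ccnd1, at the bottom of its order. The 2 DRD5-/- groups were overlapping neighbours for Ccnd3, Cdkn1a and Myc. For Cdkn2c each group overlapped with the next.

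**Figure D3:**
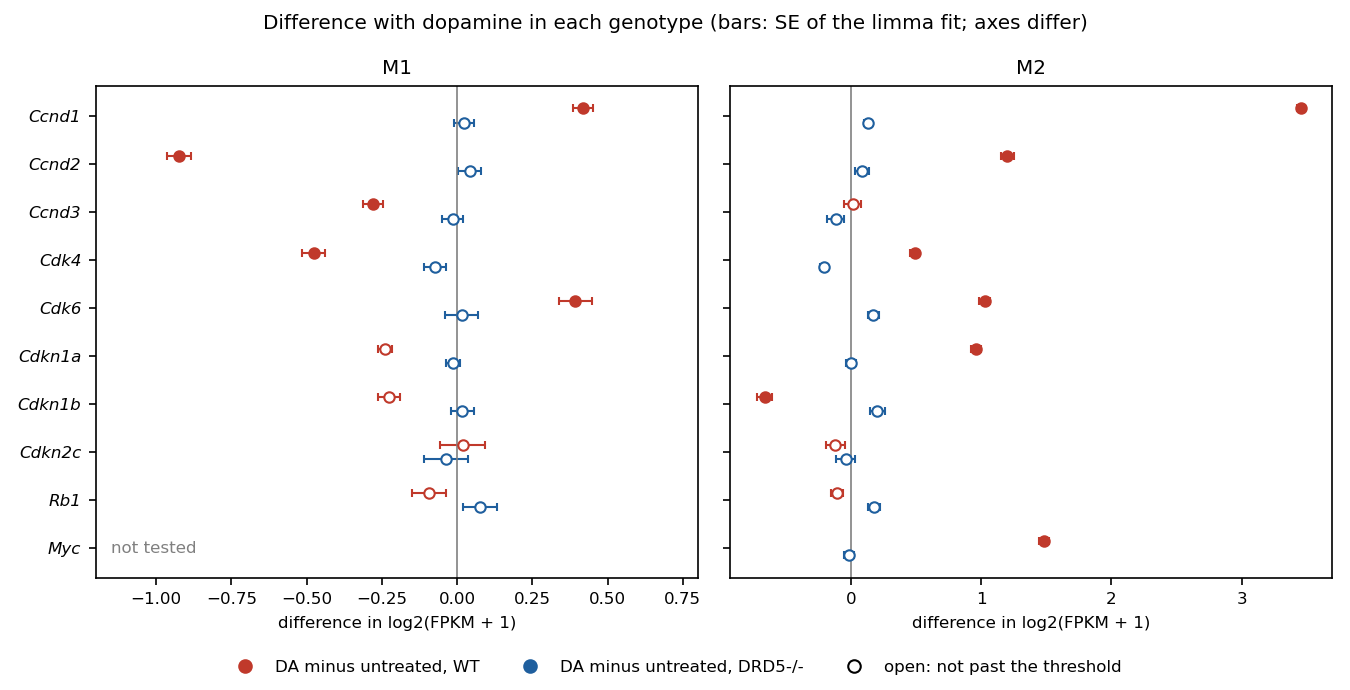
Difference between DA-treated and untreated libraries in log2(FPKM + 1) for each gene in WT (red) and DRD5-/- (blue) cells, with the SE of the limma fit as error bars; filled points passed the threshold, open points did not, and the M1 and M2 axes have different ranges. Filled points are all from WT cells, and Myc was too low in M1 to be tested.

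In the absence of the receptor, none of the 10 genes passed the threshold with DA in M2, where 3.37% of all tested genes were higher and 0.652% lower. The log2 differences ranged from -0.21 ± 0.0328 for Cdk4 to 0.20 ± 0.0578 for Cdkn1b. The difference between genotypes in the effect of DA was past the threshold for 7 of the 10 genes, 6 of them with the larger value in WT and 1 with the lower. Over all tested M2 genes, 22.8% had a higher and 20.4% a lower effect in WT than in DRD5-/- cells. All 15 M2 results of these genes that passed the threshold (7 in WT cells, 7 in the difference of effects and 1 between untreated genotypes) also did so when any 1 library was left out. Several marker lists also separated DA-treated WT from the other 9 M2 libraries. Summed fibroblast markers (Col1a1, Col1a2, Dcn and Pdgfra, all 4 listed and above 1 FPKM) ranged from 117.6 to 120.4 FPKM in untreated WT, 93.1 to 94.61 FPKM in DA-treated WT, 73.78 to 75.93 FPKM in untreated DRD5-/- and 80.55 to 81.26 FPKM in DA-treated DRD5-/- libraries. They did not fall together. In WT cells Dcn was at 73.97 to 75.78 FPKM without and 42.24 to 45.27 FPKM with DA, and Pdgfra was also lower. Col1a1, at 17.97 to 19.52 FPKM without and 22.22 to 24.66 FPKM with DA, and Col1a2 were higher. The 8 macrophage markers summed to between 9032 and 9065 FPKM in DA-treated WT libraries and to between 11400 and 11850 FPKM in the other 9. With DA in WT cells, Lyz2, Csf1r, C1qa, Adgre1, Fcgr1 and Mertk were lower and Cd68 overlapped. Itgam was higher, at 197.73 to 198.61 FPKM against 130.21 to 134.59 FPKM untreated. Cdh1, the only one of 4 epithelial markers to reach 1 FPKM, took the sum of its list to between 16.75 and 17.21 FPKM in DA-treated WT libraries against 1 to 2.24 FPKM in the other 9. The M2 stimulus markers summed to between 1214 and 1233 FPKM in DA-treated WT libraries against 416.8 to 502.5 FPKM in the other 9. Arg1, Mrc1 and Chil3 were higher with DA in WT cells, Arg1 at 28.45 to 29.86 FPKM without and 586.08 to 600.11 FPKM with it. Retnla and Ccl24 were lower, Retnla at 102.67 to 104.97 FPKM without and 28.44 to 30.3 FPKM with DA. The M1 stimulus markers summed to between 22.19 and 23.61 FPKM against 13.48 to 17.61 FPKM. Of these, Tnf was higher with DA in WT cells, and Nos2, under 1 FPKM, was lower. The T cell list, in which only Cd4 reached 1 FPKM and Cd3e and Trac were at 0 or not listed, went from 3.38 to 3.82 FPKM in untreated WT to 1.71 to 2.11 FPKM in DA-treated WT, with 4.79 to 6.06 FPKM in DRD5-/- libraries. Their part in the results was not tested.

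In M1 macrophages, DA-treated WT cells differed from untreated WT cells in another pattern and by smaller amounts. Ccnd2, Ccnd3 and Cdk4 were lower and Ccnd1 and Cdk6 higher with DA. These 5 of the 9 genes tested passed the threshold, 2 higher and 3 lower, where 4.73% of all 10040 tested M1 genes were higher and 9.6% lower. The median log2 difference was -0.23 over the 9 genes and -0.07 over all tested genes. This balance over all genes depended on the scaling, since with median-of-ratios scaling 676 genes were higher and 549 lower.

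On the log2(FPKM + 1) scale, Ccnd2 had the widest range of the 4 group means in M1, at 0.97. It measured 21.83, 22.18 and 22.46 FPKM in untreated and 10.86, 11.41 and 11.37 FPKM in DA-treated WT libraries, a ratio of 0.506 and a log2 difference of -0.92 ± 0.0397. DRD5-/- cells measured 23.44, 21.49 and 22.02 FPKM without and 22.52, 22.54 and 23.89 FPKM with DA, and both ranges overlapped with each other. Only the DA-treated WT libraries stood apart among the 12, and the difference of the DA effects was -0.96 ± 0.0561. Ccnd2 lies at chr6:127125162-127152188.

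Ccnd1 went the other way. Its levels were 23.85, 22.81 and 22.95 FPKM in untreated and 30.56, 30.90 and 32.55 FPKM in DA-treated WT cells, a ratio of 1.35 and a log2 difference of 0.42 ± 0.0334. DRD5-/- libraries lay between 24.27 and 24.64 FPKM without and 24.37 and 25.19 FPKM with DA, where the ranges overlapped. The difference between the effects was 0.40 ± 0.0472. LTO1, its overlapping neighbour, measured 13.99 to 14.69 and 14.16 to 16.00 FPKM in the 2 WT groups.

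Ccnd3 measured 91.99, 89.55 and 87.52 FPKM in untreated and 71.03, 75.05 and 75.10 FPKM in DA-treated M1 WT cells, a ratio of 0.822 and a log2 difference of -0.28 ± 0.0344. This is close to the 1.2-fold limit, and the threshold was missed without DA-treated WT replicate 1, at -0.25, without untreated WT replicate 1, at -0.26, and with median-of-ratios scaling, at -0.21. DRD5-/- libraries ranged from 91.71 to 98.63 FPKM and, with DA, from 90.98 to 94.76 FPKM. The difference of the DA effects was -0.27 ± 0.0486, and it stayed past the threshold in only 1 of the 12 fits that left out 1 library, with values of -0.30 to -0.24. In sum, the 3 D-type cyclins measured 135 ± 2.41 FPKM in untreated and 116 ± 3.42 FPKM in DA-treated WT cells, and 141 FPKM in both DRD5-/- groups. Ccnd3 remained the main one, with 66.4% ± 0.508 of the sum in untreated and 63.4% ± 0.473 in DA-treated WT cells. Ccnd1 went from 17.2% ± 0.199 to 27.0% ± 0.546 and Ccnd2 from 16.4% ± 0.524 to 9.64% ± 0.0854.

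The kinases, which were both higher with DA in M2, went apart in M1. Cdk4 measured 42.02, 40.93 and 42.80 FPKM in untreated and 30.62, 30.25 and 28.66 FPKM in DA-treated WT libraries, a ratio of 0.712 and a log2 difference of -0.48 ± 0.0377. In DRD5-/- cells it ranged from 43.13 to 45.08 FPKM untreated and from 39.72 to 43.25 FPKM with DA, and the difference of the DA effects was -0.40 ± 0.0534. Cdk6 measured 5.12, 5.21 and 5.25 FPKM in untreated and 6.98, 7.17 and 7.24 FPKM in DA-treated WT libraries, a ratio of 1.37 and a log2 difference of 0.39 ± 0.0550. Its DRD5-/- groups overlapped, at 4.77 to 5.37 and 4.81 to 5.58 FPKM. For Cdk6 the difference of the DA effects, 0.38 ± 0.0778, was not past the threshold. The ratio of Cdk4 to Cdk6 was 8.07 ± 0.189 in untreated and 4.19 ± 0.216 in DA-treated WT cells, and 8.63 ± 0.715 and 8.09 ± 0.784 in DRD5-/- cells.

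Cdkn1a, the most abundant of the 10 genes in all M1 groups, measured 685.94, 672.27 and 688.46 FPKM in untreated and 575.69, 573.08 and 583.89 FPKM in DA-treated WT libraries. The libraries did not overlap, but the log2 difference of -0.24 ± 0.0245 was under 1.2-fold and therefore not past the threshold. In DRD5-/- cells the mean was 782 FPKM without and 775 ± 21.6 FPKM with DA, both above WT, with a log2 difference of 0.20 ± 0.0245 between the untreated genotypes that was also under 1.2-fold. Cdkn1b measured 28.74, 28.94 and 29.32 FPKM in untreated and 23.55, 25.34 and 25.02 FPKM in DA-treated WT cells, a log2 difference of -0.23 ± 0.0369 that did not pass either. The ratio of Cdkn1a to Cdkn1b was 23.5 ± 0.321 and 23.5 ± 0.922 in these 2 groups, whereas in M2 WT cells it was 5.12 ± 0.231 without and 16.7 ± 0.493 with DA. The DRD5-/- groups of Cdkn1b overlapped, from 28.32 to 30.51 and from 29.21 to 30.55 FPKM.

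Cdkn2c and Rb1 showed little. Cdkn2c ranged from 1.95 to 2.49 FPKM over all 12 M1 libraries, with a log2 difference of 0.02 ± 0.0738 in WT cells. Rb1 ranged from 14.23 to 17.34 FPKM, with a difference of -0.09 ± 0.0576, and the groups of both genes overlapped throughout the order. Myc was at 0.27, 0.23 and 0.33 FPKM in untreated and 0.38, 0.41 and 0.51 FPKM in DA-treated WT cells. These do not overlap, but they were below the 1 FPKM needed for the test, and a fold at such a low level is not given. Its DRD5-/- libraries measured 0.33 to 0.42 FPKM without and 0.33 to 0.46 FPKM with DA.

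With DA in M1 DRD5-/- cells, none of the 9 tested genes passed the threshold in limma, and none of the 10040 tested M1 genes did, 0.0% in either direction, although 569 had an unadjusted p under 0.05. Between the untreated genotypes in M1 none of the 9 passed, against 0.727% of all genes higher and 0.209% lower in DRD5-/- cells. The difference of the DA effects passed for Ccnd1, Ccnd2, Ccnd3 and Cdk4, 1 with the higher and 3 with the lower effect in WT, against 3.2% and 5.18% of all tested genes. Of the 9 results past the threshold in M1, 7 passed in every fit that left out 1 library, and the other 2 were those of Ccnd3. Summed markers of neutrophils and their precursors, led by S100a8, ranged from 42.11 to 47.21 FPKM in DA-treated WT libraries and from 14.13 to 29.9 FPKM in the other 9. Of these 5 markers only S100a8 and Camp reached 1 FPKM and Elane was at 0. Camp ranged from 2.36 to 4.23 FPKM in the WT and from 0.09 to 0.35 FPKM in the DRD5-/- libraries. Other lists also separated DA-treated WT from the other 9 M1 libraries. Macrophage markers summed to between 8158 and 8226 FPKM against 7273 to 7700 FPKM, M1 stimulus markers to between 3594 and 3667 FPKM against 3836 to 4017 FPKM, and M2 stimulus markers to between 196.9 and 205.8 FPKM against 69.65 to 79.54 FPKM. Members of a list did not all go one way. With DA in WT cells, Nos2, Il12b, Cd86, Il6 and Cxcl10 were lower. Tnf was higher, at 143.15 to 146.44 FPKM against 103.33 to 107.27 FPKM untreated. Among macrophage markers, Lyz2, Csf1r, Itgam, Fcgr1 and Mertk were higher. Adgre1 was lower, at 554.66 to 560.77 FPKM against 598.59 to 602.25 FPKM. Their part in the results was not tested.

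Set side by side, the differences with DA in WT cells had the same sign in both stimuli for Ccnd1, Cdk6 and Cdkn1b, with no overlap of libraries, and for Rb1, whose libraries overlapped in M1. Myc was also higher with DA in both, but in M1 it was below 1 FPKM and not tested. There its DA-treated WT libraries, at 0.38 to 0.51 FPKM, overlapped with those of DA-treated DRD5-/- cells. The differences had opposite signs, with no overlap of libraries in either stimulus, for Ccnd2, Cdk4 and Cdkn1a. For Ccnd2 the ratio of DA-treated to untreated means was 0.506 in M1 and 2.81 in M2. For Cdk4 it was 0.712 and 1.41, and for Cdkn1a 0.847 and 1.96. These differences between stimuli were not tested, and the share of all genes with such opposite signs was not counted.

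The genes whose pattern was most like that of Ccnd1 in M2, by Pearson r of log2(FPKM + 1) over the 12 libraries, were Nop58 (r = 0.9992), a ribosome assembly gene, Slc7a8 (r = 0.9989), an amino acid transporter, and Calca (r = 0.9985), which encodes calcitonin and CGRP. Slc7a8 went from 23.2 FPKM in untreated to 263 FPKM in DA-treated WT cells and Nop58 from 18.1 to 58.6 FPKM, while Calca had a mean of 3.19 FPKM in DA-treated WT cells and of 0.0167 FPKM or less elsewhere. Calca thus reached the filter only through the DA-treated WT libraries, so that its likeness to Ccnd1 was set by the filter. For Ccnd2 in M1 they were Itgal (r = 0.9988), the αL integrin, Hspa1a (r = 0.9956), a heat shock gene with a near-identical copy that may share its reads, and Ppp1r3b (r = 0.9947). Itgal went from 96.5 to 55.8 FPKM with DA in WT cells and stayed at 96.8 and 98.2 FPKM in DRD5-/- cells. In all of these, r is set almost wholly by 1 group of 3 libraries.

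Beyond the 10 genes, 7 lists of 109 related genes were examined, of which 95 were tested in M1 and 102 in M2. They were also drawn up with results of these libraries known. The genes named from them below were picked for the size of their change or for passing the threshold in another comparison. Their adjusted p therefore only describe the fit and are no independent support. With DA in M2 WT cells, 40 list genes rose and 24 fell, which is 39.2% and 23.5% of those tested against 25.9% and 20.4% of all genes. The 40 include Bub1 and Dtl, which reached the filter only through the DA-treated WT libraries, so that their rise was set by the filter. In M1 3 rose and 7 fell, 3.16% and 7.37% against 4.73% and 9.6% of all genes. In DRD5-/- cells treated with DA, 2 list genes passed in M2, 0.98% higher and 0.98% lower against 3.37% and 0.652% of all genes. In M1 0 list genes passed and 0.0% of all genes did, although limma gave 569 unadjusted p under 0.05 over all genes.

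**Figure D4:**
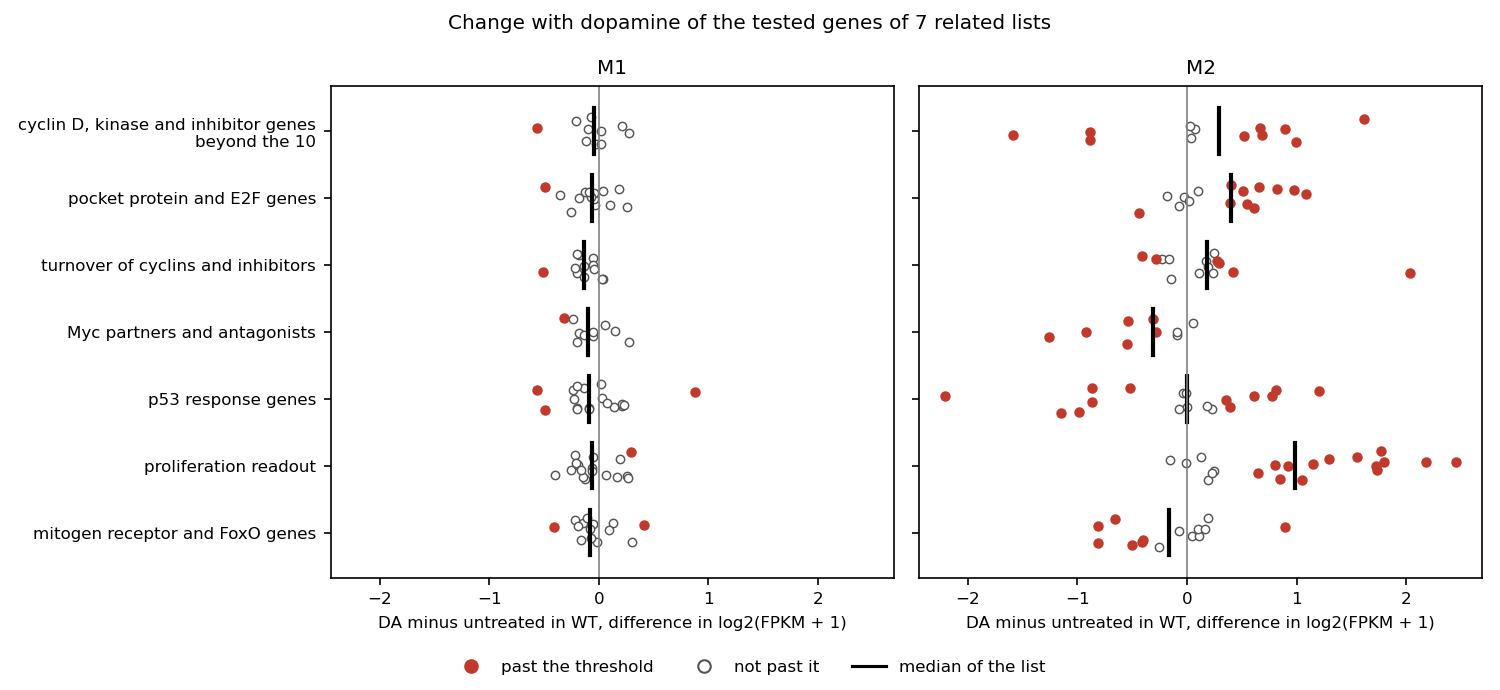
Difference with DA in WT cells, in log2(FPKM + 1), for each tested gene of the 7 lists in M1 (left) and M2 (right), with red points past the threshold, open points not past it, and the median of each list as a black line; heights within a list are spread only to separate the points. The proliferation list in M2 has a median of 0.98 and no gene that fell past the threshold.

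The strongest shift was that of the proliferation list in M2, where 14 of 20 tested genes rose with DA in WT cells and 0 fell, with a median log2 difference of 0.98 against 0.03 over all genes. The shares were 70.0% and 0.0%, against 25.9% and 20.4% of all genes. Among these 14, Bub1 reached the filter on low values only through the DA-treated WT libraries. The list did not rise as a whole. Mki67, Plk1, Aurkb, Tyms, Ccnb1 and Ccnb2 did not pass, with log2 differences from -0.16 for Ccnb1 to 0.25 for Mki67. The replication helicase genes led. Mcm5 rose from 8.97 ± 0.395 to 53.8 ± 0.722 FPKM (n = 3; limma adjusted p = 2.6e-15), Mcm2 from 8.93 ± 0.243 to 44.0 ± 1.26 FPKM (limma adjusted p = 5.63e-14), and Mcm4 by 1.80 ± 0.0387 on the log2 scale (limma adjusted p = 3.79e-14). In DRD5-/- cells Mcm5 fell with DA, from 9.46 ± 0.115 to 7.69 ± 0.374 FPKM (limma adjusted p = 0.000232). In M1 only Pcna of 17 tested genes passed, rising from 212 ± 4.63 to 261 ± 8.36 FPKM (limma adjusted p = 1.15e-06). That is 5.88% of the list, near the 4.73% of all genes that were higher.

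Among the further cyclin, kinase and inhibitor genes in M2, 6 of 12 tested rose and 3 fell with DA in WT cells. The shares were 50.0% and 25.0%, against 25.9% and 20.4% of all genes. The cyclin gene Ccne2, a partner of Cdk2, went from 1.11 ± 0.163 to 5.46 ± 0.0757 FPKM (limma adjusted p = 1.75e-09), and the phosphatase gene Cdc25a from 4.17 ± 0.329 to 9.28 ± 0.0551 FPKM (limma adjusted p = 7.86e-10). The inhibitor gene Cdkn1c (p57), which belongs to the same family as Cdkn1a and Cdkn1b, fell from 50.7 ± 1.19 to 16.2 ± 0.927 FPKM (limma adjusted p = 4.32e-13). Cdkn1c also fell in M1, from 3.84 ± 0.201 to 2.28 ± 0.235 FPKM (limma adjusted p = 1.88e-05), as the only 1 of 10 tested there. That is 10.0% of the list, near the 9.6% of all genes that were lower. Of the pocket protein and E2F genes in M2, 9 of 15 tested rose and 1 fell, 60.0% and 6.67% against 25.9% and 20.4% of all genes. Those that rose were led by Tfdp1, the E2F partner, from 20.4 ± 0.815 to 44.4 ± 0.564 FPKM (limma adjusted p = 2.29e-12), E2f1, from 15.8 ± 0.622 to 32.1 ± 0.271 FPKM (limma adjusted p = 2.14e-11), and the Rb1 relative Rbl1, from 7.79 ± 0.411 to 14.5 ± 0.297 FPKM (limma adjusted p = 9.29e-09). In M1 only E2f5 of 14 passed, falling by 0.49 ± 0.0611 on the log2 scale (limma adjusted p = 1.47e-05), which is 7.14% against 9.6% of all genes.

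The turnover list had 4 of 14 genes up and 2 down with DA in M2 WT cells, 28.6% and 14.3%, which is near the 25.9% and 20.4% of all genes. Dtl, which directs the destruction of Cdkn1a among other proteins during replication, measured 0.870 ± 0.123 FPKM without and 6.68 ± 0.144 FPKM with DA. It reached the filter only through the DA-treated WT libraries and had to differ, so no p is given. Skp2, which targets the Cdkn1b protein, rose from 4.83 ± 0.621 to 6.77 ± 0.0900 FPKM (limma adjusted p = 4.7e-05), and Fbxw7 fell from 5.72 ± 0.320 to 4.04 ± 0.111 FPKM (limma adjusted p = 2.81e-06). In M1 Cks1b, a cofactor of Skp2, fell with DA from 2.19 ± 0.0781 to 1.24 ± 0.208 FPKM (limma adjusted p = 0.000175), the only 1 of 12. This share of 8.33% is near the 9.6% of all genes that were lower. Ddb1 passed in the difference of the M1 DA effects, at -0.28 ± 0.0465 (limma adjusted p = 0.000391).

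Of the Myc partners and antagonists, 6 of 9 tested fell and 0 rose with DA in M2 WT cells. The shares were 66.7% and 0.0%, against 20.4% and 25.9% of all genes. Those that compete with Myc for Max led: Mxd4 fell from 25.0 ± 1.88 to 9.82 ± 0.151 FPKM (limma adjusted p = 4.75e-11), Mxi1 from 13.9 ± 0.785 to 6.91 ± 0.509 FPKM (limma adjusted p = 8.44e-09) and Mxd1 by 0.55 ± 0.0612 on the log2 scale (limma adjusted p = 1.57e-06). In M1 WT cells Max itself fell with DA, from 71.3 ± 1.24 to 57.0 ± 0.986 FPKM (limma adjusted p = 4.51e-07), the only 1 of 10 tested. That is 10.0% of the list, near the 9.6% of all genes that were lower. Mnt differed between the untreated M1 genotypes, at 13.4 ± 0.596 FPKM in DRD5-/- and 10.0 ± 0.0153 FPKM in WT cells (limma adjusted p = 0.000138). Mxi1 passed with Max in the difference of the M1 DA effects, at -0.27 ± 0.0449 (limma adjusted p = 0.000459).

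The p53 response genes, of which Cdkn1a is the best known, did not move as one. In M2 WT cells 6 of 18 rose and 6 fell with DA, 33.3% each, against 25.9% and 20.4% of all genes. Gdf15 rose from 3.70 ± 0.735 to 9.80 ± 0.975 FPKM (limma adjusted p = 8.57e-08), while Btg2 fell from 14.7 ± 0.609 to 2.39 ± 0.173 FPKM (limma adjusted p = 1.1e-13) and Gadd45a by 1.15 ± 0.0391 on the log2 scale (limma adjusted p = 3.93e-12). Mdm2, the p53 antagonist, rose with DA in M2 DRD5-/- cells, from 28.4 ± 1.27 to 34.4 ± 1.27 FPKM (limma adjusted p = 0.000149). In the untreated M2 comparison in which Cdkn1a was lower in DRD5-/- cells, 1 of the 102 list genes was higher and 3 were lower, 0.98% and 2.94%, which is below the 1.37% and 4.15% of all genes. All 4 are among the 18 tested genes of the p53 list, of which 5.56% were higher and 16.7% lower. That list was drawn up with results of these libraries known, so its shares are no independent support. Named after their values were seen, Fas, Phlda3 and Btg2 were lower and Gadd45a was higher. Their log2 differences were -0.61 ± 0.0842, -0.53 ± 0.0834, -0.37 ± 0.0527 and 0.52 ± 0.0391. In M1 WT cells Plk2 rose with DA from 54.8 ± 0.912 to 101 ± 2.95 FPKM (limma adjusted p = 2.95e-11), and Sesn2 and Btg2 fell by 0.56 ± 0.0499 and 0.49 ± 0.0537 on the log2 scale. The shares of 5.56% higher and 11.1% lower are near the 4.73% and 9.6% of all M1 genes.

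Of the mitogen receptor and FoxO genes, 6 of 14 tested fell and 1 rose with DA in M2 WT cells. The shares were 42.9% and 7.14%, against 20.4% and 25.9% of all genes. Csf2rb, the shared receptor chain for GM-CSF, rose from 163 ± 4.76 to 304 ± 5.89 FPKM (limma adjusted p = 4.39e-13). Foxo3, which can drive Cdkn1b, fell from 15.5 ± 0.227 to 8.37 ± 0.270 FPKM (limma adjusted p = 3.91e-11), and Foxo4 fell by 0.81 ± 0.0513 on the log2 scale (limma adjusted p = 3.45e-09). In M1 Csf1r, the receptor through which macrophages receive their growth signal, rose from 307 ± 0.727 to 409 ± 0.863 FPKM (limma adjusted p = 2.74e-09). Of this list, 7.14% were higher and 7.14% lower in M1, near the 4.73% and 9.6% of all genes.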

How the data were processed

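RNA of 24 BMDM libraries was sequenced on a BGISEQ-500. According to the study's methods, the authors filtered the reads, mapped them with HISAT2 to GRCm38.p5 and normalized to FPKM, and FPKM with 2 decimals were deposited per library. The submitters' processing notes name Bowtie2 2.2.5 and GRCm38.p6. Strand was not given in the sources used here, so reads of overlapping genes cannot be told apart. The files hold no counts, and low FPKM were not whole multiples of a read, so that depth and intervals from counts could not be had. Groups followed the labels. Genes that reached 1 FPKM in 3 or more of the 12 libraries of a stimulus were fitted on log2(FPKM + 1) in limma 3.58.1 under R 4.3.3, with 4 group means, an intensity trend and Benjamini-Hochberg adjustment over all tested genes. A pseudocount of 1 understates changes of low genes. The fit was tested on simulated data. The members and lists were chosen with earlier results of these data known. The named genes were the 10 and the up to 3 list genes changed most with DA in WT per list and stimulus. List genes past the threshold in another comparison were added where a list had only a few of them, at most 4. The 3 genes most like the widest-ranging member of each stimulus were also named. Alternatives were another pseudocount, no filter, 2 other scalings, a replicate block, no trend, an adjusted p under 0.05, only the groups compared, and leaving out each library. Gene positions and promoters were matched by gene ID to RefSeq (GRCm38.p6). Tables and figures were made with Python 3.11.15, pandas 2.3.3 and matplotlib 3.10.9. The values of 1 gene picked by the naming rule from the related lists are left out and not reported here.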

Additional observations from a re-analysis of the deposited data

Results flagged for a closer look

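The effect of DA differed between the genotypes past the threshold in the limma fit for 4 of the 9 genes tested in M1 and 7 of the 10 in M2. Over all tested genes, 3.2% had a higher and 5.18% a lower effect in WT cells in M1. In M2 these shares were 22.8% and 20.4%. In M1 the effect in WT minus that in DRD5-/- cells, on the log2 scale, was 0.40 for Ccnd1, -0.96 for Ccnd2, -0.27 for Ccnd3 and -0.40 for Cdk4. In M2 it was 3.32 for Ccnd1, 1.11 for Ccnd2, 0.69 for Cdk4, 0.86 for Cdk6, 0.96 for Cdkn1a, -0.87 for Cdkn1b and 1.50 for Myc. The value of Ccnd3 in M1 was not past the threshold without the filter, without the trend, with median-of-ratios scaling, with the replicate block, or in 11 of the 12 fits that left out 1 library. Since the genes were chosen with these libraries known, the values are a description.

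Within WT cells, 3 genes went opposite ways with DA in the 2 stimuli, with every treated library on the same side of every untreated one. The ratio of DA-treated to untreated FPKM was 0.506 in M1 and 2.81 in M2 for Ccnd2, 0.712 and 1.41 for Cdk4, and 0.847 and 1.96 for Cdkn1a. The difference between stimuli was not tested, because the M1 and M2 files may have been normalized apart.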

How the results depend on the processing

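No difference past the threshold in the 10 genes reversed under the alternatives run. The counts of the 10 genes that passed were 5 and 4 for DA in M1 WT cells and for the difference of DA effects in M1, and 7 in both for M2, and they stayed within 1.5 times these under all alternatives. Between untreated genotypes in M2 the 1 gene, Cdkn1a, became 2 with a pseudocount of 0.1, with median-of-ratios scaling, with libraries scaled to one sum, without the intensity trend and at an adjusted p under 0.05. The added gene was Cdk6 with the smaller pseudocount and the scaling to one sum, Myc with median-of-ratios scaling, and Ccnd2 without the trend and at the looser p. Leaving out 1 library gave 1 to 2 genes there, 3 to 4 in the M1 difference of effects and 4 to 5 with DA in M1 WT cells. Under median-of-ratios scaling Ccnd3 missed the threshold in both M1 comparisons and Cdk6 passed in the M1 difference of effects, as it did at an adjusted p under 0.05. Ccnd3 also missed the threshold for that difference without the filter, without the trend and with the replicate block, and Rb1 passed in the M2 difference of effects under both scalings, without the trend and at an adjusted p under 0.05.

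Of the list genes, an adjusted p under 0.05 took the count from 10 to 16 with DA in M1 WT cells, from 1 to 2 between untreated M1 genotypes, from 10 to 17 in the M1 difference of effects and from 4 to 7 between untreated M2 genotypes. The 2 list genes with DA in M2 DRD5-/- cells became 1 with median-of-ratios scaling, 4 with libraries scaled to one sum and 0 with only the groups compared, which also gave 2 between untreated M2 genotypes. Leaving out 1 library gave 0 to 3 with DA in M2 DRD5-/- cells, 2 to 4 between untreated M2 genotypes and 0 to 1 between untreated M1 genotypes. The cause of these shifts was not tested.

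Over all genes, the 94 that passed between untreated M1 genotypes became 43 without the filter, 36 without the trend and 202 at an adjusted p under 0.05, which also gave 1836 against 841 in the M1 difference of effects, 719 against 432 with DA in M2 DRD5-/- cells and 895 against 592 between untreated M2 genotypes. Median-of-ratios scaling moved the share of passing genes that were higher from 33.0% to 55.2% with DA in M1 WT cells, from 38.2% to 62.7% in the M1 difference of effects and from 24.8% to 37.1% between untreated M2 genotypes. Scaling to one sum moved it from 83.8% to 96.4% with DA in M2 DRD5-/- cells. The largest shift of the median of all genes by a scaling was 0.065 on the log2 scale. Libraries with the same replicate number were not alike (mean residual r of -0.021 over 18 pairs in M1 and -0.016 in M2), and with a replicate block 5 of the 10 genes passed with DA in M1 WT cells, 3 in the M1 difference of effects and 7 in each of the same M2 comparisons. Read depth is unknown, which limits what can be said of genes near 1 FPKM, such as Myc in M1.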
